A study of Mus musculus with 6 samples.

Results

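The genes described here encode the antioxidant and glutathione-dependent enzymes of the mouse retina: the glutathione transferases, glutathione peroxidases, peroxiredoxins and superoxide dismutases, with catalase, NAD(P)H quinone oxidoreductase (Nqo1), glutamate-cysteine ligase (Gclc, Gclm), glutathione reductase (Gsr) and thioredoxin reductase (Txnrd1). They were chosen by symbol, with earlier results of these data known. Every row of the count table was taken whose symbol starts with Gst, or with Gpx, Prdx or Sod and a digit, plus the 6 single genes. This gave 47 of 24062 rows, 22 of them Gst, 9 Gpx, 7 Prdx and 3 Sod. Whole retinas of rd10 mice were compared with those of wild-type mice (WT), both labelled as strain C57Bl6/J and taken at postnatal day 30, with 3 libraries per group and 2 frozen retinas in each sample. Mice of the rd10 line are homozygous for a missense allele of Pde6b, a rod phosphodiesterase gene, and lose their rods after birth; no treatment, transgene or Cre is named in the labels for either group. Whether each sample came from its own animal is not stated, so p-values reflect only how these samples varied, which may be technical.

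The enzymes work in relays. Superoxide dismutases turn superoxide into hydrogen peroxide, which catalase, the peroxiredoxins and the glutathione peroxidases then remove. Peroxiredoxins draw their electrons mostly from thioredoxin, and glutathione peroxidases mostly from glutathione, the tripeptide whose synthesis starts with glutamate-cysteine ligase. Glutathione transferases join glutathione to reactive lipids and foreign compounds. The retina consumes much oxygen and its outer segments are rich in polyunsaturated lipids, which makes peroxide and aldehyde removal a recurrent subject in studies of photoreceptor loss. Many genes of the group are known targets of NRF2 (Nfe2l2), a transcription factor that binds the antioxidant response element.

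Library totals ran from 10923556 to 12171088 counts in rd10 and from 13573035 to 15818918 in WT. The retinal label fitted the markers, since all 8 rod, 8 cone, 8 bipolar, 8 amacrine, 8 Müller and 7 ganglion cell markers on the lists were counted in these libraries. The 8 rod markers summed to between 17730 and 26070 CPM in rd10 libraries and between 87131 and 101350 CPM in WT libraries (CPM, counts scaled to each library's size and its TMM factor, the trimmed mean of M-values), and all 8 fell. Of the 8 Müller glia markers 5 rose, with sums of 8982 to 9830 CPM in rd10 and 6926 to 7415 CPM in WT. All 6 markers of reactive glia rose (794 to 1047 CPM in rd10, 73.2 to 119 CPM in WT), as did all 9 of microglia and macrophages (195 to 271 CPM in rd10, 58.3 to 78.2 CPM in WT), and no gene of these 4 lists was at 0 in all libraries. Of 8 cone markers 5 rose (2526 to 2757 CPM in rd10, 1712 to 2302 CPM in WT), of 8 bipolar cell markers 4 (2199 to 2278 CPM in rd10, 1770 to 1894 CPM in WT) and of 3 tested astrocyte markers 2 (112 to 151 CPM in rd10, 54.3 to 69.4 CPM in WT). Of 7 tested markers of the retinal pigment epithelium 3 fell, with sums of 189 to 337 CPM in rd10 and 317 to 345 CPM in WT. These cell type markers move with the groups, and their part in the results below was not tested. In such bulk samples, more or fewer cells of a type and more or less RNA per cell cannot be told apart.

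Library Rd10-5 stood apart. A list of 10 genes of the ocular surface epithelium, drawn up after the data were seen, summed to 72.8 CPM in Rd10-5, against 3.99 and 2.81 CPM in Rd10-3 and Rd10-4 and 3.76 to 4.75 CPM in WT libraries. Its defining corneal keratin, Krt12, had 9.97 CPM in Rd10-5 and at most 1.25 CPM in any other library, and Krt14 was at 0 in the 3 WT libraries and in Rd10-4. Results that rest on Rd10-5 are given with and without it. Libraries WT-1 and Rd10-4 shared another trait. Of the 10 tested members whose longest transcript had a GC content of at least 53%, 7 were highest in Rd10-4 within rd10 and also highest in WT-1 within WT, against 7 of the 27 other tested members. Over all tested genes with a GC value, this held for 73.4% of 4362 genes at or above 53% GC and for 11.7% of 8917 below it.

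Of the 47 members, 37 passed the filter on low counts and were tested together with all other genes (13905 in all). In rd10 retinas 9 members rose and 1 fell at an adjusted p under 0.05 (edgeR quasi-likelihood test, Benjamini-Hochberg over all genes tested). The 9 rises are 24.3% of the tested members, against 7.12% of all tested genes called higher, and the single fall is 2.7%, against 7.32% of all tested genes called lower. The risers were Prdx6, Gstm1, Gpx8, Gstt1, Gstm4, Gsta4, Gstm7, Prdx4 and Gstm5, and Gstcd fell. The median log2 fold change of the 37 tested members was 0.31, and that of all tested genes -0.04. The groups did not overlap for 20 of the 37 members, against 35.7% of all tested genes; 17 lay higher in rd10, against 17.1% of all, and 3 lower, against 18.6%. The balance depended on the scaling. With library size alone, 16 members were called higher and 0 lower, whereas with factors from inner neuron genes 4 were called higher and 5 lower. The balance over all genes moved too: 81.2% of all calls were higher with library size alone and 15.5% with inner neuron genes. Among the called members these shares were 100% and 44.4%, so they stayed above those of all genes. With inner neuron genes the median log2 fold change was 0.05 for the tested members and -0.32 for all tested genes. These scalings moved the median of all genes by 0.24 and -0.29 on the log2 scale, and changes below are relative to TMM. Positive fold changes numbered 27 of 37 with TMM, where 46.2% of all tested genes were positive. Among the members they numbered 30 with library size alone and 19 with inner neuron genes. The count also depended on single libraries: 4 members were called without WT-4, without Rd10-3 or without Rd10-4, and 5 without Rd10-5. Over all genes tested, the calls went from 2008 to 952, 885, 1227 and 1317 in the same order. With a trend with GC content removed from each library, 20 members were called, 15 higher and 5 lower. Over all genes tested there, 4453 were called, 2259 higher and 2194 lower. Prdx6, Gstm1, Gpx8 and Gsta4 kept their direction and their call under each of the 21 alternatives, and the other 6 calls were lost under at least 1 of them.

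**Figure D1:**
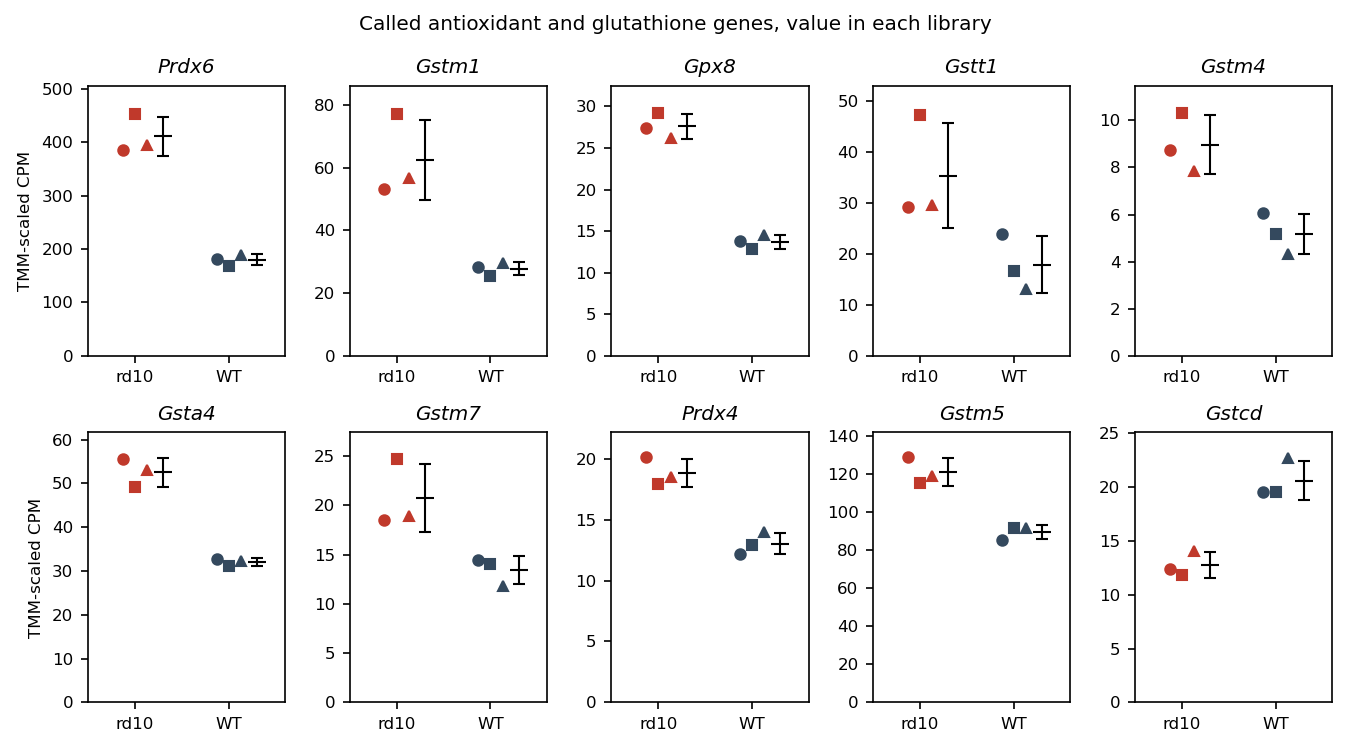
Each panel plots 1 called gene, with TMM-scaled CPM on a linear y axis that starts at 0 and the 3 rd10 libraries left of the 3 WT libraries; circles, squares and triangles are Rd10-3, Rd10-4 and Rd10-5 or WT-1, WT-4 and WT-23, and the black bar is the mean ± SD. No rd10 point lies within the WT points in any panel, and Gstcd is the only panel in which rd10 is the lower group.

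Among the peroxiredoxins, Prdx6 showed the largest change. PRDX6 is the member of the family with a single catalytic cysteine; it reduces phospholipid hydroperoxides with glutathione and also has phospholipase activity. It had 386, 454 and 394 CPM in Rd10-3, Rd10-4 and Rd10-5, against 182, 168 and 189 CPM in WT-1, WT-4 and WT-23. Every rd10 library lay above every WT library by a wide margin. The mean was 411 ± 36.9 CPM in rd10 and 180 ± 10.5 CPM in WT (SD, n = 3 each), a log2 fold change of 1.19 ± 0.11 (SE) or 2.29-fold (edgeR adjusted p = 0.000725). Over the alternatives the log2 value ran from 0.90 to 1.43. In GRCm38 the gene lies on the minus strand of chromosome 1, from 161240112 to 161251219. Only 0.28% of its transcript's 50-base words recur in another gene's transcripts, namely those of its retrocopy Prdx6b, which had 0 counts in each library.

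Prdx4, which encodes the peroxiredoxin of the endoplasmic reticulum, rose less. Its values were 20.1, 17.9 and 18.5 CPM in Rd10-3, Rd10-4 and Rd10-5, against 12.2, 12.96 and 14.0 CPM in WT-1, WT-4 and WT-23, without overlap. The log2 fold change was 0.53 ± 0.14 (edgeR adjusted p = 0.0367). This call was lost with inner neuron scaling (log2 0.24, adjusted p = 0.271) and without any 1 of WT-1, WT-4, Rd10-3, Rd10-4 and Rd10-5 (edgeR adjusted p from 0.0532 to 0.168).

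The other 4 tested peroxiredoxins did not pass. Prdx1, a cytosolic enzyme, had 207, 175 and 189 CPM in Rd10-3, Rd10-4 and Rd10-5, against 130, 157 and 161 CPM in WT-1, WT-4 and WT-23, so the groups did not overlap, but the log2 fold change of 0.35 ± 0.13 missed the threshold (edgeR adjusted p = 0.109). Prdx2, also cytosolic and the most abundant peroxiredoxin per transcript length, averaged 290 ± 32.4 CPM in rd10 and 264 ± 57.1 CPM in WT (log2 0.14 ± 0.17, edgeR adjusted p = 0.631). The mitochondrial Prdx3 had a log2 fold change of 0.15 ± 0.11 and Prdx5, found in mitochondria, peroxisomes and cytosol, one of 0.04 ± 0.30. Prdx5 spread widely inside both groups, with 140 CPM in Rd10-4 and 94.7 to 101 CPM in the other rd10 libraries, and with 162 CPM in WT-1 and 66.9 CPM in WT-23. Prdx1, Prdx2, Prdx3 and Prdx5 had positive values with TMM, and those of Prdx2, Prdx3 and Prdx5 were negative with inner neuron scaling.

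Among the glutathione peroxidases, Gpx8 rose and the most abundant member, Gpx4, did not pass. GPX8 is a membrane-bound peroxidase of the endoplasmic reticulum. Its gene had 27.4, 29.2 and 26.2 CPM in Rd10-3, Rd10-4 and Rd10-5, against 13.8, 12.8 and 14.5 CPM in WT-1, WT-4 and WT-23. The groups stood far apart with little spread inside either. The log2 fold change was 1.01 ± 0.13, or 2.01-fold (edgeR adjusted p = 0.00204). Gpx8 lies on the minus strand of chromosome 13 from 113042753 to 113046410, wholly inside Cdc20b on the other strand. Whether the authors counted by strand is not known here, but Cdc20b had at most 3 counts in any library.

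Gpx4 encodes the selenoenzyme that reduces lipid hydroperoxides in membranes and restrains ferroptosis. It had 312, 411 and 300 CPM in Rd10-3, Rd10-4 and Rd10-5, against 651, 411 and 347 CPM in WT-1, WT-4 and WT-23. The groups overlapped, since Rd10-4 lay level with WT-4, and WT-1 stood far above the other libraries. The log2 fold change of -0.46 ± 0.24 missed the threshold (edgeR adjusted p = 0.238), and it was -0.15 without WT-1. With inner neuron scaling (-0.73, edgeR adjusted p = 0.0319) and with a GC trend removed from each library (-0.51, adjusted p = 0.000475), Gpx4 passed as lower in rd10. Its transcript has the highest GC content of the tested members, 60.2%, and 51.4% of its 50-base words recur in the pseudogene Gpx4-ps2, so its count is uncertain.

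Gpx1, the main cytosolic glutathione peroxidase, had 30.5, 47.5 and 25.3 CPM in Rd10-3, Rd10-4 and Rd10-5, against 39.0, 24.5 and 19.3 CPM in WT-1, WT-4 and WT-23, and the groups overlapped (log2 0.32 ± 0.31, edgeR adjusted p = 0.527). Its log2 fold change was 0.016 without Rd10-4 and 0.65 without WT-1. It passed as higher under only 1 of the 21 alternatives, without both WT-1 and Rd10-5 (0.83, edgeR adjusted p = 0.0234), which keeps Rd10-4. The Gpx1 transcript has a GC content of 57.2%, and the gene was highest in Rd10-4 within rd10 and in WT-1 within WT. Gpx7, another peroxidase of the endoplasmic reticulum, averaged 3.61 ± 0.77 CPM in rd10 and 2.19 ± 0.50 CPM in WT (SD, n = 3 each). Each rd10 library lay above each WT library, but the log2 fold change of 0.72 ± 0.27 missed the threshold (edgeR adjusted p = 0.12). Gpx7 and Prdx1 passed as higher with library size alone (edgeR adjusted p = 0.0372 and 0.0198) and with the GC trend removed (0.0484 and 0.0014).

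Gpx3, which encodes the secreted glutathione peroxidase of plasma, varied mainly among libraries of the same group. It had 11.2, 16.4 and 32.0 CPM in Rd10-3, Rd10-4 and Rd10-5, against 15.3, 24.0 and 28.2 CPM in WT-1, WT-4 and WT-23 (log2 -0.18 ± 0.38, edgeR adjusted p = 0.787). The highest value of all came from Rd10-5 and the lowest from Rd10-3. The summed CPM of Best2 and Optc, genes of the ciliary body listed after the data were seen, was 1.46, 6.13 and 20.0 in the same rd10 libraries and 8.99, 14.1 and 18.3 in the WT libraries. Within each group the 3 libraries stood in the same order by Gpx3 as by the ciliary genes, of which only 1 passed the filter. Since these genes were picked after the data were seen, the order is a description only. The part of ciliary tissue in the Gpx3 values was not tested. Without Rd10-5 the log2 fold change was -0.71 (edgeR adjusted p = 0.2), and without both Rd10-5 and WT-1 it was -0.92 and passed (adjusted p = 0.012).

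**Figure D2:**
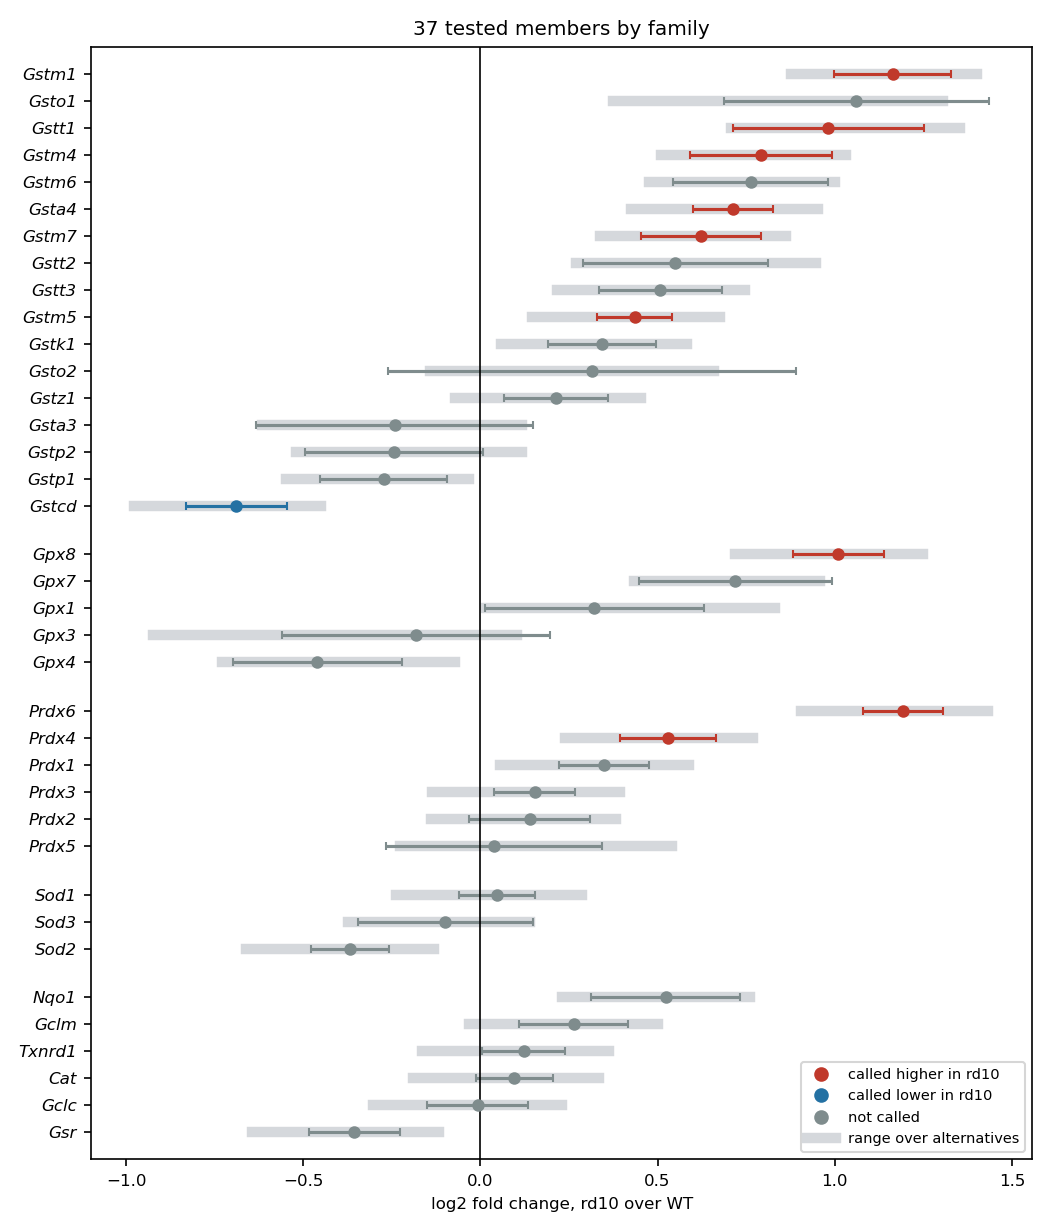
Points give the log2 fold change of rd10 over WT for the 37 tested members, ordered by size within the Gst, Gpx, Prdx and Sod families and the 6 single genes, with error bars of 1 SE and a grey band for the range over the 21 alternatives. The bands of all called risers stay to the right of 0 and that of Gstcd to its left, so no called gene's band crosses 0.

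The glutathione transferases were 17 of the 37 tested members and held most of the calls, and 4 of their 6 rises came from the mu class. The 7 mu class genes lie side by side within 149 kb of chromosome 3 (107895821 to 108044894, GRCm38), in the order Gstm5, Gstm7, Gstm6, Gstm3, Gstm2, Gstm1 and Gstm4, with Gstm5 alone on the plus strand. Mu class enzymes conjugate epoxides, quinones and lipid aldehydes. The 5 that passed the filter had positive fold changes and no overlap between groups, and 4 of them rose. Over all tested genes, 17.1% lay higher in rd10 without overlap and 7.12% were called higher. Gstm2 and Gstm3 did not pass the filter, with at most 27 and 3 counts in any library.

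Gstm1 rose most, with 53.3, 77.1 and 56.8 CPM in Rd10-3, Rd10-4 and Rd10-5, against 28.4, 25.6 and 29.5 CPM in WT-1, WT-4 and WT-23. All rd10 values were well above the WT values, and Rd10-4 was the highest of them. The log2 fold change was 1.16 ± 0.17, or 2.24-fold (edgeR adjusted p = 0.00329). Of its 50-base words 19.9% recur in other genes, most often in the pseudogene Gstm2-ps1 and in Gstm3, so that a part of its reads may have been split or dropped in counting.

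Gstm5, the most abundant mu class gene per length, had 129, 115 and 119 CPM in Rd10-3, Rd10-4 and Rd10-5, against 85.2, 91.9 and 91.75 CPM in WT-1, WT-4 and WT-23. Its rise was small but tight, with a log2 fold change of 0.44 ± 0.11 (edgeR adjusted p = 0.0303). Gstm5 overlaps 393 bases of the antisense gene 4933431E20Rik, which averaged 72.4 ± 3.0 CPM in rd10 and 56.4 ± 3.6 CPM in WT (log2 0.36 ± 0.11, edgeR adjusted p = 0.0648). Gstm4 had a log2 fold change of 0.79 ± 0.20 (edgeR adjusted p = 0.0356) and Gstm7 one of 0.62 ± 0.17 (adjusted p = 0.0443). Gstm6 missed the threshold narrowly (0.76 ± 0.22, edgeR adjusted p = 0.0537), and it passed under 7 alternatives, among them DESeq2 (adjusted p = 0.0479) and without WT-23 (0.0365). The calls of Gstm4, Gstm5 and Gstm7 were lost with inner neuron scaling (edgeR adjusted p = 0.0743, 0.434 and 0.153). Each was also lost without any 1 of WT-4, Rd10-3, Rd10-4 and Rd10-5, with adjusted p between 0.0602 and 0.163, and those of Gstm4 and Gstm7 without WT-23 as well (0.0666 and 0.08).

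**Figure D3:**
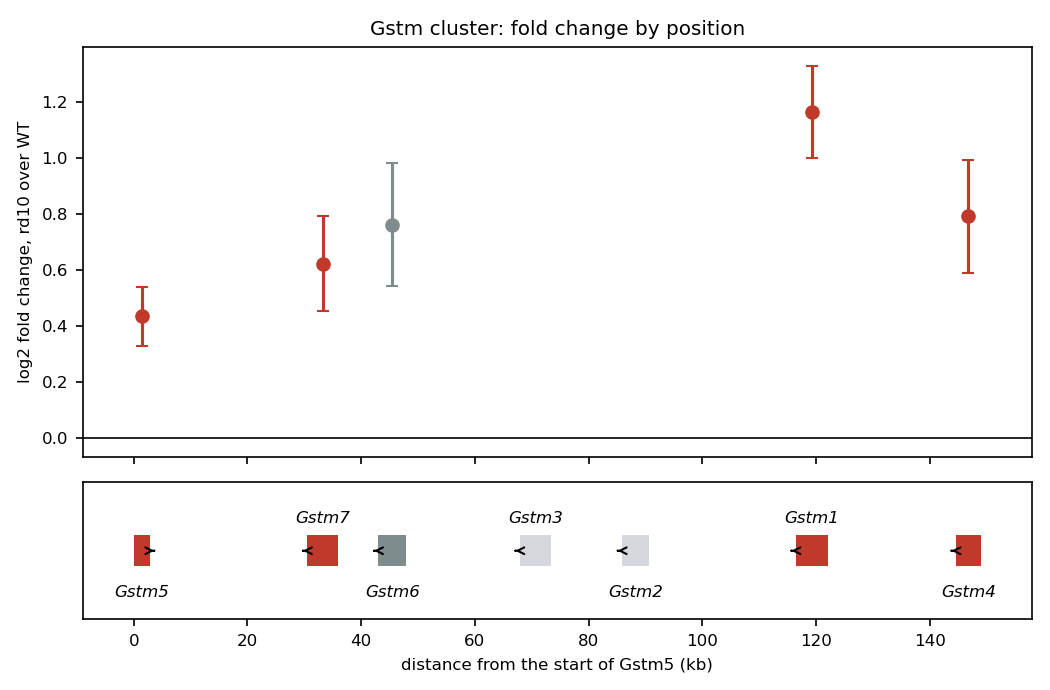
The upper panel gives the log2 fold change of rd10 over WT ± 1 SE for the 5 tested mu class genes against the distance in kb from the start of Gstm5; the lower panel draws the 7 genes to scale, with arrows for the strand, red for called higher, dark grey for not called and light grey for not tested. All 5 points lie above 0, from 0.44 for Gstm5 to 1.16 for Gstm1.

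Promoter windows, from 250 bases before to 50 after each start, were read from the RefSeq table for GRCm38.p6, in which 39 of the 47 members had an entry. Both strands were searched for the core of the antioxidant response element, TGACNNNGC, and for the AP-1 motif, TGANTCA; the motifs can overlap where they share TGA. The first was found for 7 of 39 members (Gclm, Gsta3, Gstm5, Gstm7, Prdx1, Sod1 and Txnrd1), against 14% of all 27025 genes in the table, and the second for 4 of 39 (Gstm5, Gstp1, Gstp2 and Prdx1), against 8.97%. Of the risers with an entry, Gstm5 and Gstm7 held the first motif, whereas Gstm1, Gstm4, Gpx8, Gstt1 and Prdx4 held neither in these windows. The windows of 3 risers of the mu cluster and of Prdx1 are shown to let this be read off the letters; capitals mark the motifs. They are 1 of the 2 starts of Gstm1 (chr3:108017924-108018223, minus strand; neither held a motif), Gstm5 (chr3:107895604-107895903, plus strand), 1 of the 2 starts of Gstm7 (chr3:107931565-107931864, minus strand; the other held neither motif) and Prdx1 (chr4:116685349-116685648, plus strand), each written 5′ to 3′.
Gstm1: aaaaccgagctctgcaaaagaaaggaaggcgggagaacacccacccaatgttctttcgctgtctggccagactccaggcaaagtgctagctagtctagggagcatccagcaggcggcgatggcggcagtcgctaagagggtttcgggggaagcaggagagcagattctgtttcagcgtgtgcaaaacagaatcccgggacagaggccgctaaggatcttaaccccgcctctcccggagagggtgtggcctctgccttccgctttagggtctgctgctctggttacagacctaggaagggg
Gstm5: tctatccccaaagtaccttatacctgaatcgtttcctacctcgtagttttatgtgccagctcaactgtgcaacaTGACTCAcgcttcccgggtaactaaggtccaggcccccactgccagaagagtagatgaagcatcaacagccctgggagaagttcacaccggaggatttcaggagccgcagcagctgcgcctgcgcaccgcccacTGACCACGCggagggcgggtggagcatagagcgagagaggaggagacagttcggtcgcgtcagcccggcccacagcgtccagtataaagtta
Gstm7: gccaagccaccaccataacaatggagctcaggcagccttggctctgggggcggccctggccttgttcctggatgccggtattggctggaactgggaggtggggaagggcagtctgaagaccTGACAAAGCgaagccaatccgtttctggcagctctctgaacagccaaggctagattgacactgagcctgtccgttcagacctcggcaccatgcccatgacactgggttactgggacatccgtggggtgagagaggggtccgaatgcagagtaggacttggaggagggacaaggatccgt
Prdx1: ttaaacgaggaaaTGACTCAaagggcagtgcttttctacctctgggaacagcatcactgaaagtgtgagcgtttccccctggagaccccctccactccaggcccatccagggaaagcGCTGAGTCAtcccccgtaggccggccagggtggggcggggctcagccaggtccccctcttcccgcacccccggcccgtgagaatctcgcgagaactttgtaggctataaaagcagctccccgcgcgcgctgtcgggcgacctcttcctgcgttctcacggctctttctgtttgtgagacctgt
The Gstm1 window has no capitals. In Gstm5 the AP-1 motif starts 176 bases and the response element core 42 bases before the start, in Gstm7 the core starts 129 bases before it, and in Prdx1 the core and the second AP-1 motif overlap. A match is a description of the letters and was not tested for binding.

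Beyond the mu class, Gsta4 and Gstt1 rose and Gstcd fell. GSTA4 is the alpha class transferase with high activity towards hydroxynonenal, an aldehyde formed from oxidised lipids. Gsta4 had 55.6, 49.1 and 53.03 CPM in Rd10-3, Rd10-4 and Rd10-5, against 32.7, 31.1 and 32.3 CPM in WT-1, WT-4 and WT-23. The groups were tight and far apart, with a log2 fold change of 0.71 ± 0.11 or 1.64-fold (edgeR adjusted p = 0.00523). It lies on chromosome 9 from 78182774 to 78209349, beside Gsta1 and Gsta2, which did not pass the filter and share 89.7% and 47.4% of their 50-base words with other genes.

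Gstt1, a theta class gene whose transcript has a GC content of 54.9%, had 29.2, 47.3 and 29.6 CPM in Rd10-3, Rd10-4 and Rd10-5, against 24.0, 16.6 and 13.2 CPM in WT-1, WT-4 and WT-23. Rd10-4 stood far above the other rd10 libraries and WT-1 above the other WT libraries, and the groups came close without overlapping. The log2 fold change was 0.98 ± 0.27 (edgeR adjusted p = 0.0465), and the call was lost with inner neuron scaling (adjusted p = 0.0564). It was also lost without any 1 of WT-4, WT-23, Rd10-3, Rd10-4 and Rd10-5 (edgeR adjusted p from 0.0691 to 0.156). Its neighbours on chromosome 10, Gstt2 and Gstt3, had 0.55 ± 0.26 and 0.51 ± 0.17 (edgeR adjusted p = 0.199 and 0.0926). Gstt2 passed without WT-1 (0.80, edgeR adjusted p = 0.044), and Gstt3 with library size alone (0.0198) and with the GC trend removed (0.0413). Gstt3 overlaps Gm20441 on the same strand and shares 20.2% of its 50-base words with it.

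Gstcd, named for a transferase-like C-terminal domain, is in the group by its symbol. It had 12.4, 11.8 and 14.1 CPM in Rd10-3, Rd10-4 and Rd10-5, against 19.5, 19.5 and 22.6 CPM in WT-1, WT-4 and WT-23. The values did not overlap, and the log2 fold change was -0.69 ± 0.14 (edgeR adjusted p = 0.0165). Leaving out WT-4, Rd10-3 or Rd10-4 ended the call (edgeR adjusted p = 0.0671, 0.0911 and 0.0669), as did scaling by library size alone (-0.45, adjusted p = 0.0639). Gstcd overlaps Ints12 on the other strand by 194 bases, and Ints12 had a log2 fold change of -0.25 ± 0.17 (edgeR adjusted p = 0.367).

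Gsto1 encodes an omega class enzyme that reduces dehydroascorbate and protein mixed disulfides. It had 26.6, 25.5 and 70.3 CPM in Rd10-3, Rd10-4 and Rd10-5, against 18.6, 20.3 and 19.7 CPM in WT-1, WT-4 and WT-23. Rd10-5, the library with the ocular surface genes, stood far above all others. The log2 fold change of 1.06 ± 0.37 missed the threshold (edgeR adjusted p = 0.0996), and without Rd10-5 it was 0.41 (adjusted p = 0.153). DESeq2 called it higher with all libraries (log2 1.07, adjusted p = 0.0191). Gstm2 showed the same library, with 4, 6 and 27 counts in Rd10-3, Rd10-4 and Rd10-5 and 4, 4 and 8 counts in WT-1, WT-4 and WT-23, and the part of surface tissue in both genes was not tested.

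**Figure D4:**
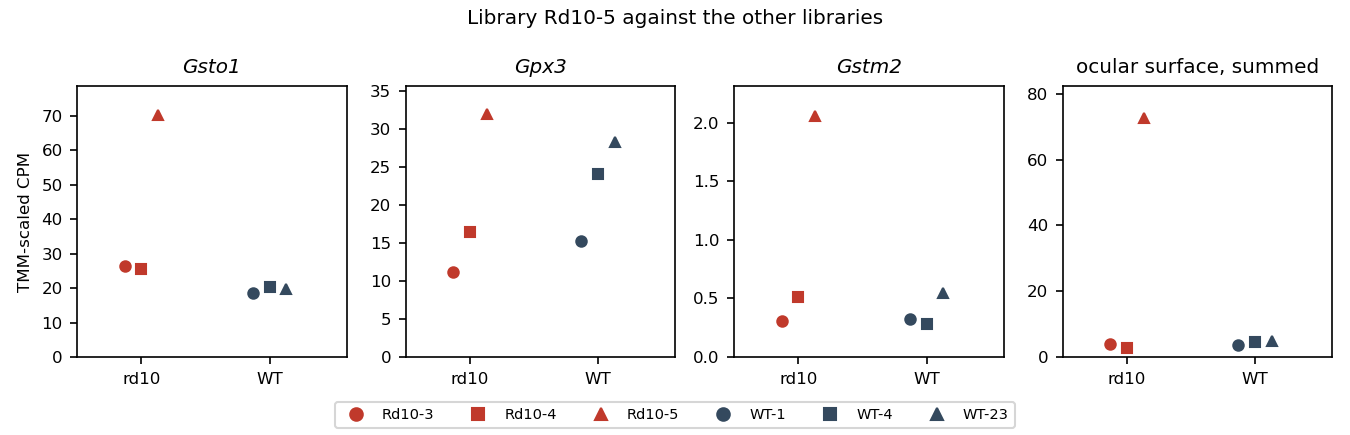
TMM-scaled CPM in each library, with rd10 left of WT, of Gsto1, Gpx3, Gstm2 and the sum of 10 ocular surface epithelium genes; each y axis is linear, starts at 0 and has its own scale. The red triangle, Rd10-5, is the highest point in all 4 panels, at 70.3 CPM for Gsto1 and 72.8 CPM for the summed genes.

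The remaining transferases did not pass. Gstp1, the pi class gene and the most abundant uncalled transferase per length, averaged 83.8 ± 11.0 CPM in rd10 and 101 ± 22.2 CPM in WT (SD, n = 3 each; log2 -0.27 ± 0.18, edgeR adjusted p = 0.349). It passed as lower with inner neuron scaling (-0.55, edgeR adjusted p = 0.0381) and with the GC trend removed (-0.31, 0.00982). It shares 51% of its 50-base words with Gstp2 (-0.24 ± 0.25, edgeR adjusted p = 0.558), so neither value is certain. Gstk1, the kappa class gene of mitochondria and peroxisomes, had 0.34 ± 0.15 (edgeR adjusted p = 0.175) without overlap between groups, and passed with library size alone (0.0301). Gstz1, an enzyme of tyrosine breakdown, Gsto2 and Gsta3 had 0.21 ± 0.15, 0.31 ± 0.57 and -0.24 ± 0.39 (edgeR adjusted p = 0.369, 0.756 and 0.72).

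None of the 3 superoxide dismutases was called (edgeR, DESeq2 or limma voom; 1 of 3 had an unadjusted p under 0.05 in edgeR). Sod1, the cytosolic copper and zinc enzyme, averaged 139 ± 5.31 CPM in rd10 and 135 ± 9.81 CPM in WT (log2 0.05 ± 0.11, edgeR adjusted p = 0.805). Of its 50-base words 23.1% recur in Gm8566, so that a part of its reads may have been split or dropped in counting. Sod2, the mitochondrial manganese enzyme, had 100.3, 94.5 and 100.7 CPM in Rd10-3, Rd10-4 and Rd10-5, against 119, 124 and 139 CPM in WT-1, WT-4 and WT-23. Each rd10 value was below each WT value, but the log2 fold change of -0.37 ± 0.11 missed the threshold (edgeR adjusted p = 0.0607). It passed without WT-1, with inner neuron scaling and with the GC trend removed (edgeR adjusted p = 0.03, 0.0119 and 0.0312). Sod3, the extracellular enzyme, had -0.10 ± 0.25 (edgeR adjusted p = 0.822).

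None of the 6 single genes passed either (edgeR, DESeq2 or limma voom; 2 of 6 had an unadjusted p under 0.05 in edgeR). Catalase, the peroxisomal enzyme, averaged 41.9 ± 1.2 CPM in rd10 and 39.2 ± 1.2 CPM in WT (log2 0.10 ± 0.11, edgeR adjusted p = 0.6), and its groups did not overlap. For glutathione synthesis, the catalytic subunit gene Gclc had -0.01 ± 0.14 and the modifier subunit gene Gclm 0.26 ± 0.15 (edgeR adjusted p = 0.977 and 0.291), and Gclm passed as higher with the GC trend removed (0.0126). Gsr, which regenerates glutathione from its disulfide, averaged 14.9 ± 1.1 CPM in rd10 and 19.1 ± 0.4 CPM in WT without overlap, with a log2 fold change of -0.36 ± 0.13 (edgeR adjusted p = 0.108). Txnrd1, which regenerates cytosolic thioredoxin, had 0.12 ± 0.12 (edgeR adjusted p = 0.532). Nqo1, often used as an indicator of NRF2 activity, had 8.83, 8.95 and 8.37 CPM in Rd10-3, Rd10-4 and Rd10-5, against 6.05, 4.598 and 7.53 CPM in WT-1, WT-4 and WT-23. The groups did not overlap, but the log2 fold change of 0.52 ± 0.21 missed the threshold (edgeR adjusted p = 0.139). Nqo1 passed with library size alone and with the GC trend removed, and Gsr with inner neuron scaling and with the GC trend removed, each in the same direction.

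The other 10 members did not pass the filter and had at most 27 counts in any library. Gpx2-ps1, Gpx5 and Prdx6b were at 0 throughout, and Gpx2, Gpx6 and Gstt4 had at most 1 count in any library. Counts of Gsta1, Gsta2, Gstm2 and Gstm3 were 3 or more in at least 1 library, which is too few for a comparison here.

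Levels of different members were compared per length only, as RPKM (CPM per kilobase of merged exons of GENCODE M21). Gpx4 was the highest member, with 198 RPKM in rd10 and 272 RPKM in WT. In rd10 Prdx2, Gstm5 and Prdx6 came next, with 95.2, 94.8 and 85.6 RPKM, whereas in WT Prdx2 and Gstm5 had 86.5 and 70.1 RPKM and Prdx6 37.4 RPKM. Gstp1 had 54.1 RPKM in rd10 and 65.4 RPKM in WT. These values depend on the length used. Per length of the longest transcript, Gpx4 had 343 and Prdx6 161 RPKM in rd10, against 472 and 70.3 RPKM in WT. With TMM scaling the 47 members summed to 2376, 2664 and 2366 CPM in Rd10-3, Rd10-4 and Rd10-5, against 2464, 2071 and 1933 CPM in WT-1, WT-4 and WT-23, and the groups overlapped. As a share of the unscaled totals they took 0.268 ± 0.016% of all counts in rd10 and 0.198 ± 0.022% in WT (SD, n = 3 libraries each).

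Genes around these enzymes were taken from 7 lists. The NRF2 regulators did not pass, with 0 of 11 tested genes called in either direction by edgeR at an adjusted p under 0.05 (3 at an unadjusted p under 0.05, and 0 by DESeq2 and by limma voom). With inner neuron scaling Bach1, Cul3 and Rbx1 passed as lower, and with library size alone Nfe2l2 and Sqstm1 passed as higher; 5 passed with the GC trend removed, and Bach1 and Cul3 passed as lower without WT-1. Nfe2l2 itself, named for its role, had 40.1, 36.6 and 37.9 CPM in Rd10-3, Rd10-4 and Rd10-5, against 27.0, 29.6 and 33.3 CPM in WT-1, WT-4 and WT-23, and missed the threshold (log2 0.35 ± 0.13, edgeR adjusted p = 0.109). It passed as higher with library size alone (adjusted p = 0.0188) and with the GC trend removed (0.00594). The gene of the list with the highest CPM, Sqstm1, an autophagy adaptor gene that also holds KEAP1, had 0.27 ± 0.14 (edgeR adjusted p = 0.224). The list's median log2 fold change was 0.06, and -0.21 with inner neuron scaling, where that of all tested genes was -0.32.

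Of 14 tested detoxifying enzymes, most of them known NRF2 targets, 4 rose and none fell, with a median of 0.63. Aox1, aldehyde oxidase, rose by 1.93 ± 0.23, Ephx1, the microsomal epoxide hydrolase, by 1.26 ± 0.16 and Akr1b8, an aldo-keto reductase gene, by 1.19 ± 0.25 on the log2 scale (edgeR adjusted p = 0.00154, 0.00204 and 0.0158). Akr1b8 missed the threshold when WT-4, Rd10-3 or Rd10-4 was left out (edgeR adjusted p = 0.0645, 0.0753 and 0.0512) and the calls of Aox1 and Ephx1 held under all 21 alternatives. Ephx1 had 35.6, 42.0 and 32.5 CPM in Rd10-3, Rd10-4 and Rd10-5, against 15.8, 17.1 and 13.2 CPM in WT-1, WT-4 and WT-23. The fourth was Hmox1, heme oxygenase (0.93 ± 0.25, edgeR adjusted p = 0.046), whose call was lost with inner neuron scaling (edgeR adjusted p = 0.0651) and without any 1 of the libraries other than WT-1 (0.058 to 0.159). Aldh3a1, an abundant corneal enzyme gene, had 14.4 CPM in Rd10-5 and at most 1.45 CPM elsewhere (log2 2.95 ± 1.03, edgeR adjusted p = 0.0973), and without Rd10-5 its log2 fold change was 0.75 (adjusted p = 0.311).

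Of 17 tested genes of glutathione supply, breakdown and the microsomal transferases, 3 rose and 2 fell, with a median of 0.00. Mgst1, a membrane-bound glutathione transferase outside the Gst symbols, had 17.0, 19.9 and 17.4 CPM in Rd10-3, Rd10-4 and Rd10-5, against 5.32, 5.85 and 6.71 CPM in WT-1, WT-4 and WT-23. Its log2 fold change of 1.599 ± 0.16 (edgeR adjusted p = 0.000864) exceeded the 1.19 of Prdx6, the highest among the called members, and it held under every alternative. Glo1, which with glutathione detoxifies methylglyoxal, rose by 0.55 ± 0.10 and Ggt1, which breaks glutathione down outside the cell, by 1.47 ± 0.34 (edgeR adjusted p = 0.00767 and 0.0247). The 2 that fell were Mat2a, of methionine metabolism (-0.57 ± 0.15), and Abcc1, an exporter of glutathione conjugates (-0.42 ± 0.11). Apart from that of Mgst1, these calls were less stable. Glo1 was lost with inner neuron scaling (0.26, edgeR adjusted p = 0.114) and without Rd10-3 (0.0517), and Ggt1 without WT-4, Rd10-3 or Rd10-4 (0.0768 to 0.0907). Mat2a and Abcc1 were lost with library size alone (edgeR adjusted p = 0.162 and 0.329), with upper quartile factors (0.0671 and 0.0979) and without any 1 library other than WT-1 (0.051 to 0.199), and Abcc1 with RLE factors as well (0.0561).

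The 8 tested sources of superoxide and peroxide had a median of 1.34, with 5 rises and no fall. Cybb, the catalytic subunit of the phagocyte NADPH oxidase, had 6.52, 5.96 and 4.64 CPM in Rd10-3, Rd10-4 and Rd10-5, against 0.245, 0.627 and 0.339 CPM in WT-1, WT-4 and WT-23 (log2 3.77 ± 0.34, edgeR adjusted p = 0.00061). Ncf1, a cytosolic subunit of the same oxidase, rose by 2.20 ± 0.25 and Rac2, its GTPase in blood cells, by 2.37 ± 0.28 (edgeR adjusted p = 0.00124 and 0.00147). These 3 calls held under all 21 alternatives. Cyba and Xdh were called as well (1.42 ± 0.39 and 1.097 ± 0.30, edgeR adjusted p = 0.0476 and 0.0456). Cyba was lost without any 1 library other than WT-1 (0.0619 to 0.159), and Xdh without WT-4, WT-23, Rd10-3 or Rd10-4 (0.0886 to 0.182), with inner neuron scaling (0.0598) and by DESeq2 (0.0531). The oxidase of Cybb and Ncf1 is that of phagocytes, and all 9 microglia and macrophage markers rose, with the sums given above. The part of these cells in the oxidase values was not tested. Of the remaining oxidase genes, Nox1, Noxa1 and Duox1 were at 0 in all libraries.

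The other lists moved little on balance. Of 16 thioredoxin and glutaredoxin genes, Txnip, which binds thioredoxin, and Nxn, nucleoredoxin, rose (0.75 ± 0.14 and 0.57 ± 0.14, edgeR adjusted p = 0.0111 and 0.0307) and none fell, with a median of 0.08. Both calls were lost with inner neuron scaling (edgeR adjusted p = 0.0616 and 0.157), Txnip also without Rd10-5 (0.0505) and Nxn without any 1 library other than WT-1 (0.0501 to 0.128). Of 11 NADPH supply genes, 2 rose and 2 fell: the malic enzyme genes Me2 and Me1 fell (-0.79 ± 0.14 and -0.57 ± 0.14, edgeR adjusted p = 0.00702 and 0.0344), while Idh2, the mitochondrial isocitrate dehydrogenase gene, rose by 0.74 ± 0.16 (edgeR adjusted p = 0.019), as did Nnt. Me2 was lost only without WT-4 (edgeR adjusted p = 0.0534), and Me1 without any 1 library other than WT-1 (0.0506 to 0.177), with library size alone (0.151) and under upper quartile factors (0.0598). Idh2 and Nnt were lost with inner neuron scaling (edgeR adjusted p = 0.0551 and 0.185) and on leaving out WT-4 or any 1 rd10 library (0.0614 to 0.159), and Nnt without WT-1 as well. Of 16 selenoprotein and methionine sulfoxide repair genes, Sepp1, the secreted selenium carrier, rose by 0.74 ± 0.14 (edgeR adjusted p = 0.0118), but not with inner neuron scaling (0.45, adjusted p = 0.0644). Sephs2, which makes the selenium donor that GPX4 and the other selenoproteins require, had 20.8, 20.9 and 22.2 CPM in Rd10-3, Rd10-4 and Rd10-5, against 38.3, 35.9 and 32.7 CPM in WT-1, WT-4 and WT-23. It fell by 0.74 ± 0.12 on the log2 scale (edgeR adjusted p = 0.00652), and this held under every alternative. The medians of these 3 lists and that of glutathione supply lay between -0.05 and 0.08 with TMM, near the -0.04 of all tested genes. With inner neuron scaling they lay between -0.33 and -0.21, and that of all tested genes was -0.32.

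**Figure D5:**
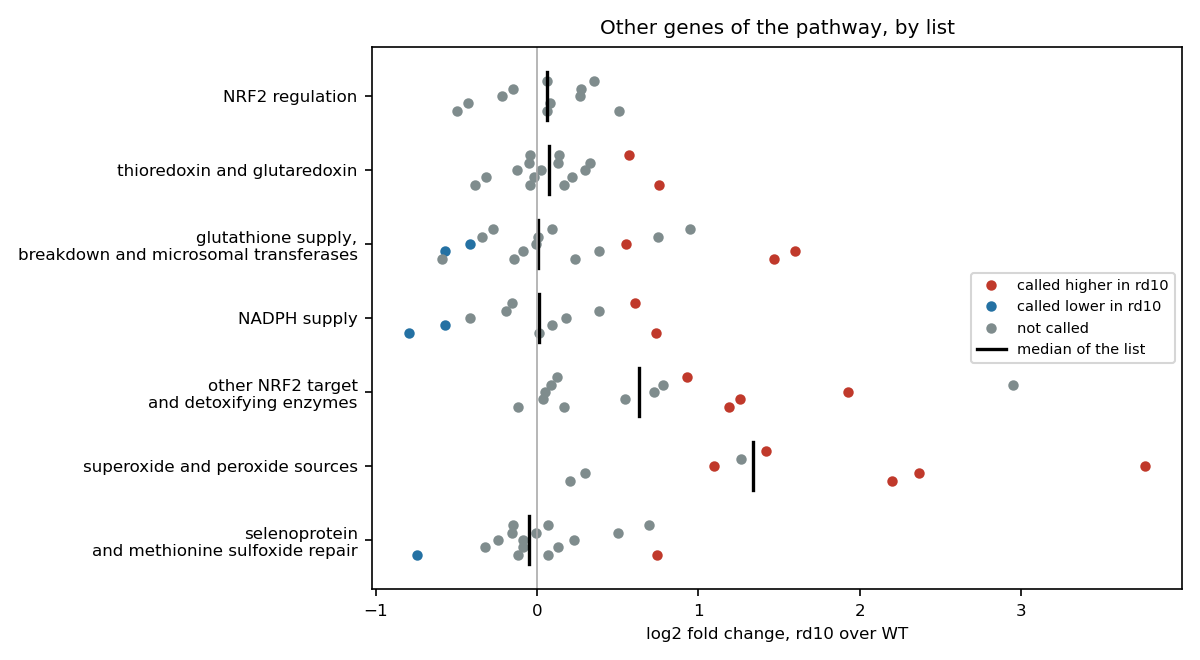
Each point is a tested gene of 1 of 7 lists, placed by its log2 fold change of rd10 over WT (x axis) and coloured by its call, with a black bar at the list's median. The medians of the superoxide and peroxide sources (1.34) and of the detoxifying enzymes (0.63) lie to the right of the other 5, which stay between -0.05 and 0.08. With inner neuron scaling these 5 are all negative, and the median of all tested genes is -0.32.

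The authors' deposited table, which holds 3427 genes with a p under 0.05, lists 18 of the members, 15 of them higher and 3 lower in rd10 (Gstcd, Gsr and Sod2). By its name it was also cut on fold change and FPKM, and its p-values are not labelled as adjusted. Its 18 members and the 10 called here thus rest on unlike thresholds. The authors' table holds each of the 10 members called here, and its direction was that of the present fit for all 18. Both rest on the same samples. For Prdx6 the authors' deposited table gives 421.5 FPKM in rd10 and 184.5 FPKM in WT, for Gstm1 67.1 and 29.9 FPKM, and for Gpx8 22.8 and 11.3 FPKM, each as 1 value per group. The levels differ from the RPKM above, and the gene lengths behind the authors' values are not known here.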

How the data were processed

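RNA-seq counts per gene in 6 retinal samples, 3 of rd10 and 3 of WT, were used as deposited by the authors. Per the labels' protocols the libraries were directional, made from total RNA. TopHat2 2.1.0, HTSeq, edgeR and the build mm10 are named in the submitters' processing notes; the sources used here give neither the annotation nor the strand setting. The authors' deposited comparison table gives FPKM per group, log2 fold change and p-value, and was used only where named. A deposited table of selected inner nuclear layer genes was not used. Libraries are called by their column names, since the numbers could not be matched to the replicate numbers of the labels.

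Genes were tested with edgeR 4.0.16 (robust quasi-likelihood fit, TMM, default filter on low counts, genotype as the only term, Benjamini-Hochberg adjustment over all 13905 genes tested, threshold 0.05) in R 4.3.3. The SE is the log2 fold change divided by the square root of the F statistic. DESeq2 1.42.0 and limma 3.58.1 (voom) were alternatives. In all 21 alternatives were run, changing the tool, scaling, filter, threshold or libraries; removal of a GC trend and leaving out both WT-1 and Rd10-5 were added after seeing the data, as were the ocular surface and ciliary lists. RPKM used merged exon lengths of GENCODE M21, in which 94.4% of the 24062 genes were found. Inner neuron scaling used factors from marker genes of bipolar, amacrine and ganglion cells. With TMM the median log2 fold changes of these 3 lists were 0.49, 0.27 and 0.23. Of their genes, 4 of 8 bipolar, 0 of 8 amacrine and 0 of 7 ganglion cell markers were called, all higher in rd10. This scaling sets their mean change to 0 and so lowers the fold changes of other genes.

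The members and lists were chosen with earlier results of these data known. Genes named are the called members, the most abundant uncalled member of each family per length, and for each list the called genes of lowest p, at most 3 (with none called, the gene of highest CPM); other members and genes were named after their values were seen, to account for each member or complete a count. Between libraries of 1 group, the chi-square per degree of freedom of the counts ran from 7.36 to 57.8, so none was a repeat deposit.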

Additional observations from a re-analysis of the deposited data

How the results depend on the processing

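The count of called members was 10, and moved to 16 with library size alone, 4 at an adjusted p under 0.01, 5 when tested against a fold of 1.2 and 20 with the GC trend removed; leaving out 1 library at a time it ran from 4 to 11. Over all genes the count was 2008, and moved to 3043 with library size alone, 4041 with inner neuron scaling, 881 at an adjusted p under 0.01, 3050 at 0.1, 1285 against a fold of 1.2, 4453 with the GC trend removed and 3225 without both WT-1 and Rd10-5; leaving out 1 library at a time it ran from 885 to 3214. The changes with the threshold follow from its construction; for the others the cause was not tested. Of all calls, 49.3% were higher in rd10, against 81.2% under library size alone, 63.3% under upper quartile factors and 15.5% under inner neuron scaling. The median level of the tested members was 11.3 RPKM per merged exon length and 15.5 RPKM per length of the longest transcript. None of the 10 called members changed sign under any of the 21 alternatives. Changing only the threshold, the fold tested against or the robust fit left the fold changes as they were, so signs could not change. Of the 10, 4 kept their call under each alternative and 6 lost it under at least 1. Of the 27 uncalled members, 15 passed under at least 1 and 12 under none. With 3 libraries per group and few counts for the 10 untested members, differences in those were not detectable at this depth. No paired analysis was possible because the columns carry numbers that could not be matched to the replicate numbers of the labels, and the groups share only the number 4.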
